A study of Mus musculus with 8 samples.

Results

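The secreted WNT inhibitors are proteins that cells release to hold back WNT signalling. Their genes in these data were Wif1, Dkk1, Dkk2, Dkk3, Sfrp1, Sfrp2, Sfrp4, Sfrp5, Frzb and Sostdc1, chosen by gene symbol from the table of all genes, 10 of 55536 genes. All 10 passed the filter on low values and were among the 16647 genes tested. RNA came from the non-elevated posterior palatal shelves of mouse embryos at E14.5. Palatal shelves are the folds on either side of the tongue that lift and fuse into the palate. The 4 mutant libraries came from Yapfl/fl;Tazfl/fl;Col2Cre embryos and the 4 control libraries from Yapfl/fl;Tazfl/fl embryos without the Cre, so the floxed alleles of both genes were shared by all libraries. Col2Cre is driven by regulatory sequence of the cartilage collagen gene Col2a1, and the dissected shelves held epithelium and mesenchyme together, so the tissue can hold cells that never had Cre. Nothing in the labels states that each library is a different embryo, and p-values therefore measure the spread between these libraries.

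WNT ligands signal by binding a Frizzled receptor together with the co-receptor LRP5 or LRP6, which stabilises beta-catenin and turns on its target genes. WIF1 and the secreted Frizzled-related proteins (the Sfrp genes and Frzb) bind the ligand itself. DKK1, DKK2 and SOSTDC1 act at the co-receptor, and DKK1 needs Kremen proteins for its full effect. WNT signals from the epithelium and the mesenchyme both take part in growth and patterning of the palate, and these inhibitors limit where the signals act.

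Depth was even, with totals of 29025089 to 32437977 recovered reads per library. Yap1 had 8463 ± 277 normalised counts in mutant libraries and 9610 ± 429 in control libraries (SD, n = 4 each), with every mutant below every control. Wwtr1, the gene for TAZ, had 4007 ± 397 in mutants and 4879 ± 352 in controls, and neither gene passed the test across all genes (limma adjusted p = 0.751 for both). Palatal mesenchyme markers were all detected, with 10 of 10 tested and sums of 61251.5 to 76359.3 in mutants and 63141.3 to 72328.2 in controls. Epithelial markers were detected as well, with 15 of 15 tested, all with higher means in mutants, and sums of 54980.7 to 99636.8 in mutants and 51231.8 to 70056.9 in controls. Mutant replicate 2 had the highest epithelial sum of the 8 libraries and the lowest osteogenic, chondrogenic and endothelial sums.

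The promoters of Dkk1 and Wif1 are shown because these genes had the smallest p-values among the 10 inhibitors. RefSeq (GRCm38.p6) gave a promoter for 6 of the 10 genes by symbol, namely Wif1, Dkk1, Dkk2, Sfrp2, Sfrp5 and Frzb, and the 250 bases before the RefSeq start were searched on both strands. The letters searched were GGAATG for TEAD factors, the DNA-binding partners of YAP and TAZ, CTTTGA for TCF and LEF factors, the partners of beta-catenin, and TGTGGT for RUNX factors of bone and cartilage. Each run is the gene's own strand from 5′ to 3′, and capitals mark a match to one of these on either strand. The Dkk1 stretch is chr19:30549497-30549746 on the minus strand and the Wif1 stretch is chr10:121033754-121034003 on the plus strand.
Dkk1: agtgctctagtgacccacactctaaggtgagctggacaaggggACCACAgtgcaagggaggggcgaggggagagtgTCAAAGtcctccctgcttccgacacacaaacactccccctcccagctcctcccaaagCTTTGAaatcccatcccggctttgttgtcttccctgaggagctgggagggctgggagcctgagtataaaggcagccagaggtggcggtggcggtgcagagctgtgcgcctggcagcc
Wif1: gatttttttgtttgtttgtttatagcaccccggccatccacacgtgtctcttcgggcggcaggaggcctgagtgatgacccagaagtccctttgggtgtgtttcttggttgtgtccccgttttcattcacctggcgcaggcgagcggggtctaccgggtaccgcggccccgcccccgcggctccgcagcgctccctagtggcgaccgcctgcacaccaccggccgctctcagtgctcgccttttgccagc
In Dkk1 the TCF and LEF letters stood 174 bases before the start as TCAAAG and 117 bases before it as CTTTGA, and the RUNX letters stood 207 bases before it as ACCACA. The Wif1 window held none of the 3 motifs. Of 32851 mouse promoters cut to the same window, 13.8% held CTTTGA at least once and 1.37% at least 2 times, 14.0% held TGTGGT and 12.6% held GGAATG. Among the 6 inhibitor promoters, CTTTGA was found in Dkk1 and in Frzb (95 bases before the start), TGTGGT in Dkk1 and in Sfrp5 (192 bases before it), and GGAATG in 0. The start of the gene in the authors' table lay upstream of the RefSeq start by 169 bases for Dkk1, by 44 for Wif1 and by 229 for Frzb, so that their windows reach into the annotated gene, and at the same base for Dkk2, Sfrp2 and Sfrp5. A match describes letters only, and nothing about binding was measured.

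The comparison of mutants with controls asks whether the inhibitor genes differ in level when Col2Cre is added to the floxed Yap1 and Taz alleles. Wif1 was lower in every mutant library, at a fitted 0.693 of the control level (95% interval 0.576 to 0.835). Dkk1 was at a fitted 0.326 of the control level (95% interval 0.165 to 0.644), with overlap between the groups. The 6 genes with the highest levels, Sfrp2, Sfrp1, Sostdc1, Dkk3, Frzb and Dkk2, had fitted levels from 0.850 (Dkk3) to 1.07 (Dkk2) of control. None of the 10 genes passed the test across all genes, in which 0.024% of genes were called (limma, 4 of 16647). By mean log2 level, 8 of the 10 were lower and 2 higher in mutants, and their median log2 difference was -0.13, whereas 50.04% of all tested genes were lower and their median was -0.00015. Without mutant replicate 2 the 10 genes split into 4 lower and 6 higher, with a median of 0.03. An unadjusted limma p under 0.05 was found for 3 of the 10 (Wif1, Dkk1 and Sfrp1), against 6.57% of all genes tested.

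**Figure D1:**
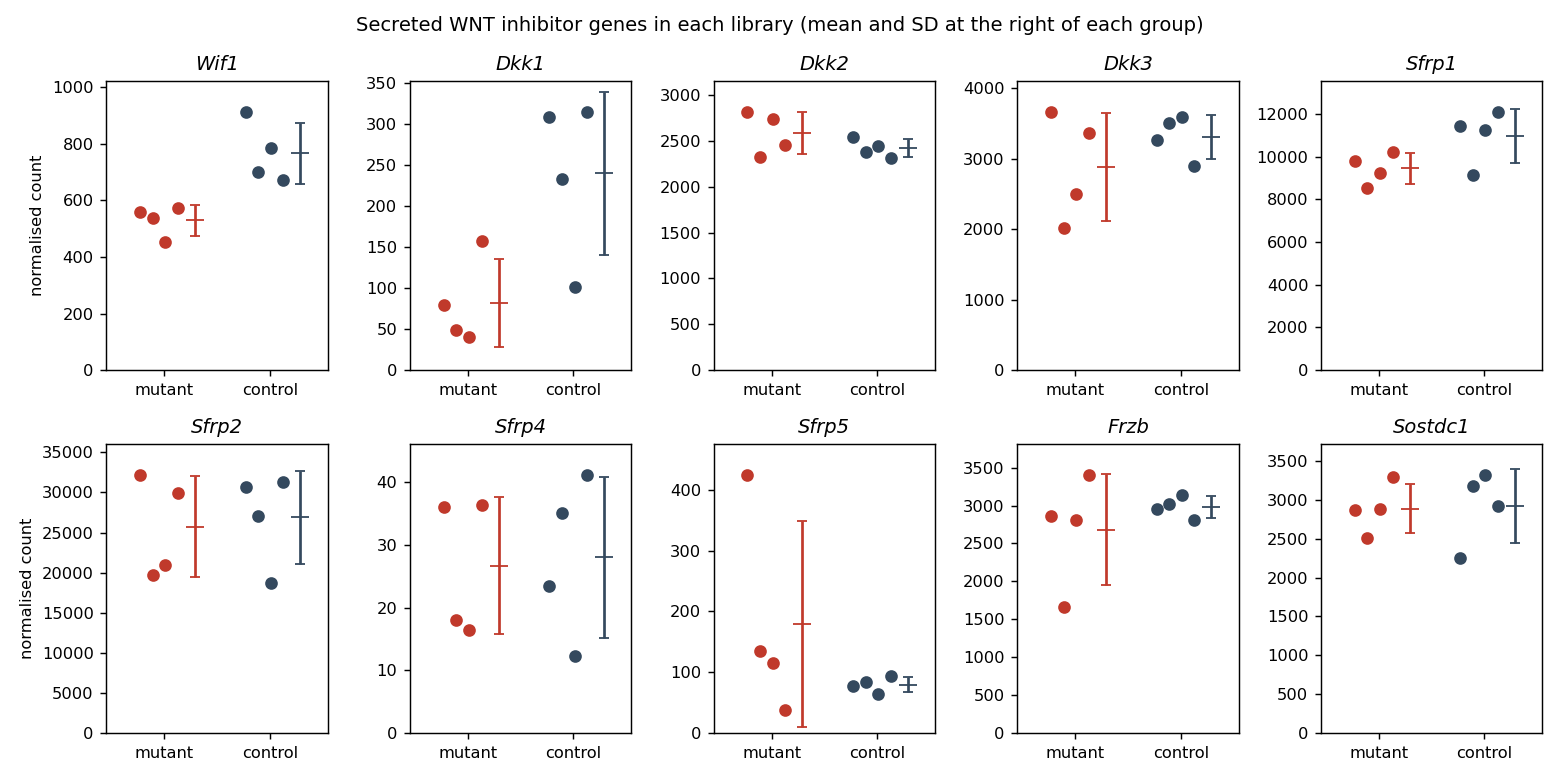
Normalised count (vertical axis, from 0) of each inhibitor gene, with a point for each library in replicate order, mutants on the left and controls on the right of each panel, and the mean and SD at the right of each group. The 4 Wif1 values of the mutants (451.5 to 572.5) lie below the 4 of the controls (669.8 to 911.5), while in the other 9 panels the groups overlap.

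Among the inhibitors that bind the ligand, Wif1 (ENSMUSG00000020218, chromosome 10 from 121033960 to 121100650, plus strand) encodes WNT inhibitory factor 1, a secreted protein with a lipid-binding WIF domain. Wif1 had 557.2, 535.7, 451.5 and 572.5 normalised counts in mutant replicates 1 to 4, against 911.5, 698.9, 783.8 and 669.8 in control replicates 1 to 4. All mutant libraries lay below all controls, which was true of 1 of the 10 inhibitors and of 1.91% of all genes tested. The reverse, all mutants above all controls, was true of 0 of the 10 and of 1.86% of all genes. The means were 529 ± 54.0 in mutants and 766 ± 108 in controls (SD, n = 4 each), a log2 difference of -0.53 (SE 0.123, 95% interval -0.80 to -0.26). Limma gave an adjusted p of 0.701 over all genes, and exact two-sided permutation gave p = 0.0286, the smallest value that 4 libraries against 4 allow. DESeq2 on the recovered reads called Wif1 just inside its threshold of 0.05 (adjusted p = 0.0494), in a test that called 31 of 14046 genes (0.221%), whereas edgeR, which called 0.03% of 16647 genes, did not (adjusted p = 0.728) and called 0 of the 10 inhibitors. Over 21 alternatives the adjusted p of Wif1 ran from 0.0494 to 0.975.

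Fewer cells of a type and less RNA per cell cannot be told apart in these bulk libraries. Summed levels of osteogenic markers (Bglap was at 0 in every library) were also lower in every mutant library, 122489 to 202930 normalised counts against 220651 to 251015 in controls, with lower means in mutants for 13 of 13 tested markers. Endothelial sums were 15359.9 to 20406.2 in mutants and 20421.2 to 21955.4 in controls, with 9 of 10 markers lower, and chondrogenic sums were 21463.6 to 46321.4 in mutants and 38645.3 to 60462.3 in controls, with 12 of 13 tested markers lower. Such sums are weighted to the most abundant markers. Among single markers, all mutants lay below all controls for 2 of 13 osteogenic, 3 of 10 endothelial and 0 of 13 chondrogenic ones. Over all genes tested this share was 1.91%. The part of these markers in the Wif1 difference was not tested.

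Sfrp1 (ENSMUSG00000031548, chromosome 8 from 23411502 to 23449632) encodes a secreted protein with a Frizzled-type cysteine-rich domain that binds WNT. Sfrp1 had 9799.1, 8544.6, 9225.6 and 10209.7 normalised counts in the mutants, against 11418, 9141, 11234.2 and 12087 in the controls. The groups overlapped because control replicate 2 lay among the mutants, while the other 3 controls lay above all 4 mutants. The log2 difference was -0.21 (SE 0.0862, 95% interval -0.40 to -0.02; limma adjusted p = 0.754, exact permutation p = 0.114), and it ran from -0.30 without control replicate 2 to -0.16 without control replicate 4.

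Sfrp2 (ENSMUSG00000027996, chromosome 3 from 83766321 to 83774316), its close relative, was the most abundant inhibitor message. Sfrp2 had 32213, 19723, 20966 and 29977 normalised counts in the mutants, against 30621, 27046, 18661 and 31244 in the controls. The values of both genotypes divided into a low and a high set, with mutant replicates 2 and 3 and control replicate 3 low and the others high. The log2 difference between genotypes was -0.07 (SE 0.183, 95% interval -0.47 to 0.33; limma adjusted p = 0.966), which leaves room for differences up to the bounds of that interval.

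The antisense gene Gm26771 overlaps the exons of Sfrp2 by 347 bp on the opposite strand, and the sources used here do not say whether reads were counted by strand. Gm26771, named after its values were seen, had 41.8, 35, 31.8 and 53.6 normalised counts in mutants and 54.3, 107.4, 67.7 and 85.4 in controls. All mutants lay below all controls (log2 difference -0.92, limma adjusted p = 0.754, exact permutation p = 0.0286). Reads of the shared stretch cannot be told apart between the pair without the strand. None of the other 9 inhibitor genes overlapped the exons of another annotated gene.

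Sfrp5 (ENSMUSG00000018822, chromosome 19 from 42197971 to 42202252, minus strand), the third gene of this subfamily, was the most variable among the mutants. Sfrp5 had 424.9, 135.3, 115.8 and 38.4 normalised counts in the mutants, against 77.7, 84.0, 63.6 and 93.3 in the controls. Mutant replicates 1 to 3 lay above all controls and mutant replicate 4 below all of them, so the mutants lay on either side of a narrow control range. The log2 difference of 0.68 (SE 0.549, 95% interval -0.52 to 1.88; limma adjusted p = 0.839, exact permutation p = 0.486) was 0.10 without mutant replicate 1 and 1.24 without mutant replicate 4. By edgeR and by DESeq2 it was 1.17 (adjusted p = 0.790 and 0.580 in that order). With the title number of the libraries as a block it was -0.11. In that fit mutant replicate 1 and control replicate 1, each alone under its number, add nothing to the difference. Schwann cell and glia markers, with 7 of 8 higher in mutants, had summed levels of 6763.2, 4775.8, 4495.1 and 3188.1 in mutant replicates 1 to 4, in the same order as Sfrp5, and of 3078.9 to 3514.9 in controls. Their part in the spread of Sfrp5 was not tested.

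Frzb and Sfrp4 form the other subfamily of Frizzled-related genes. Frzb (ENSMUSG00000027004, chromosome 2 from 80411970 to 80447625, minus strand), first described in cartilage, had 2860.9, 1657.2, 2805.7 and 3406.6 normalised counts in the mutants, against 2952.7, 3022.3, 3142.5 and 2807.7 in the controls. Mutant replicate 2 stood below all other libraries, and the other 3 mutants lay around the control range. The log2 difference was -0.20 (SE 0.17, 95% interval -0.57 to 0.17; limma adjusted p = 0.853), and 0.02 without mutant replicate 2. That library had the lowest chondrogenic (21463.6), osteogenic and endothelial sums and the highest epithelial sum. The part of these markers in the Frzb difference was not tested.

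Sfrp4 (ENSMUSG00000021319, chromosome 13 from 19623104 to 19632994), an inhibitor known for its role in cortical bone, had the fewest counts of the 10 genes. Sfrp4 had 36.0, 18.0, 16.4 and 36.4 normalised counts in the mutants, against 23.4, 35.1, 12.3 and 41.2 in the controls, from 12 to 42 reads in a library. The groups overlapped throughout, and the interval of the log2 difference (-0.03, 95% interval -1.14 to 1.08; limma adjusted p = 0.995) was too wide at this depth to show a difference of about 2-fold in either direction.

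Among the inhibitors of the co-receptor, Dkk1 (ENSMUSG00000024868, chromosome 19 from 30545863 to 30549665, minus strand) had the largest difference in size of the 10. DKK1 binds LRP5 and LRP6, is a well-known brake on bone formation and is itself a target of beta-catenin in several tissues. Dkk1 had 78.8, 49.2, 40.5 and 157.8 normalised counts in the mutants, against 308.8, 233.3, 101.6 and 314.3 in the controls. Mutant replicates 1 to 3 lay below all controls, mutant replicate 4 lay among them, and control replicate 3 lay far below the other controls. The means were 81.6 ± 53.4 in mutants and 239.5 ± 99.1 in controls (SD, n = 4 each), a log2 difference of -1.62 (SE 0.451, 95% interval -2.60 to -0.63). Limma gave an adjusted p of 0.751 over all genes, exact two-sided permutation gave p = 0.0571, and DESeq2 gave an adjusted p of 0.0794. The log2 difference ran from -2.0 without mutant replicate 4 to -1.36 without mutant replicate 3. With the title number as a block it was -0.97 (limma adjusted p = 0.697), again with nothing added by mutant replicate 1 and control replicate 1. Control replicate 3, with the fewest Dkk1 counts of the controls, had an osteogenic sum of 246153, the second highest of the 8 libraries. Such a sum is weighted to the most abundant markers. Ifitm5 (136.5) and Smpd3 (1903.1) of the same list were at their lowest control values in this library. Both are named below because they were picked for likeness to Dkk1 over these same libraries. Their low values in control replicate 3 therefore largely follow from that choice. The part of the osteogenic and chondrogenic markers in the Dkk1 difference was not tested.

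Dkk2 (ENSMUSG00000028031, chromosome 3 from 132085292 to 132180304) encodes a relative that also binds LRP6 and can activate or inhibit signalling depending on the context. Dkk2 had 2813.2, 2328.3, 2738.2 and 2456.8 normalised counts in the mutants, against 2543.8, 2381.9, 2439.7 and 2307.8 in the controls. Mutant replicates 1 and 3 lay above all controls and the other 2 among them. Dkk2 was the steadiest of the 10 genes, with an SD of log2 values over the 8 libraries of 0.105, and its log2 difference of 0.09 had a 95% interval of -0.07 to 0.25 (limma adjusted p = 0.832).

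Dkk3 (ENSMUSG00000030772, chromosome 7 from 112116017 to 112159057, minus strand) encodes the most divergent DKK protein, whose link to the co-receptor is less clear. Dkk3 had 3659.2, 2011.2, 2498.9 and 3355.0 normalised counts in the mutants, against 3257.3, 3499.6, 3584.7 and 2894.1 in the controls. Mutant replicates 2 and 3 lay below all controls and mutant replicate 1 above all of them. The log2 difference was -0.23 (SE 0.158, 95% interval -0.58 to 0.11; limma adjusted p = 0.808), and -0.08 without mutant replicate 2.

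Sostdc1 (ENSMUSG00000036169, chromosome 12 from 36314139 to 36318452) encodes an inhibitor of both WNT and BMP signalling that limits the number of teeth in mice. Sostdc1 had 2877.4, 2508.1, 2878.1 and 3290.3 normalised counts in the mutants, against 2257.4, 3186.3, 3326.1 and 2924.5 in the controls, so that every mutant lay within the control range. The log2 difference was -0.01 (SE 0.117, 95% interval -0.26 to 0.25; limma adjusted p = 0.994), with a sign that turned under quantile normalisation and under library weights. Markers of dental epithelium (Amelx was at 0 in every library) had sums of 572.5 to 901.1 in mutants and 689.1 to 792.2 in controls, with 4 of 5 tested markers lower by limma and 2 of 5 by edgeR.

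**Figure D2:**
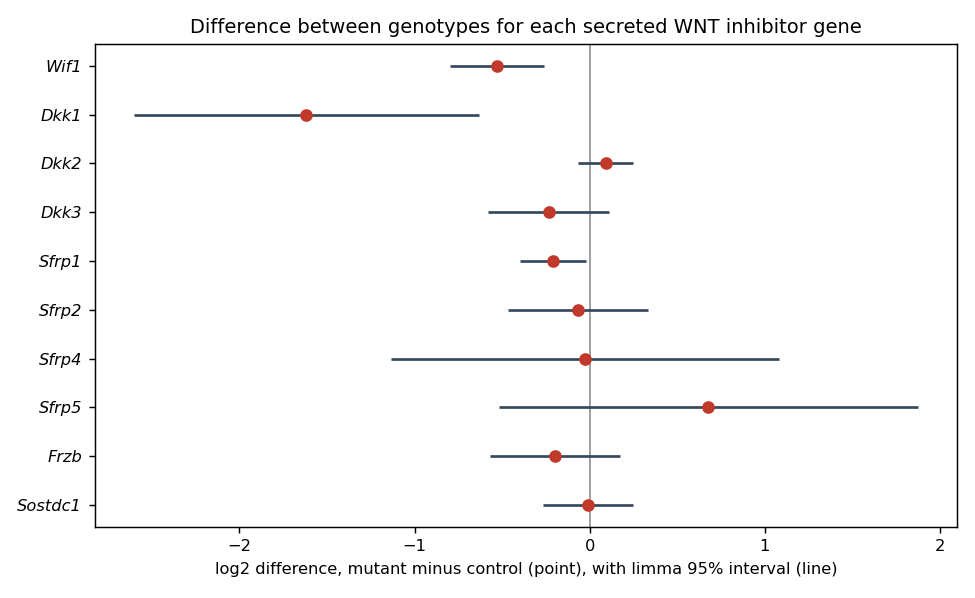
Log2 difference of each inhibitor gene, mutant minus control (horizontal axis; points), with the limma 95% interval as a line. The intervals of Wif1 (-0.80 to -0.26), Dkk1 (-2.60 to -0.63) and Sfrp1 (-0.40 to -0.02) leave out 0 before adjustment over all genes, and those of the other 7 genes include it.

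Levels of different genes were compared per kilobase of exon, from merged exons of the GENCODE annotation. Sfrp2 stood first, with 11950 normalised counts per kb in mutants and 12490 in controls, and made up 64.3% of the summed level of the 10 genes in mutants and 62.9% in controls. After Sfrp2 came Sfrp1 (2160 per kb in mutants, 2509 in controls) and Sostdc1 (1622 in mutants, 1642 in controls). Dkk3 (858 in mutants, 985 in controls), Frzb (829 in mutants, 921 in controls) and Dkk2 (698 in mutants, 653 in controls) were close together, and Wif1 followed at 218 in mutants and 316 in controls. By mean, Dkk1 (33.6 in mutants, 98.7 in controls) and Sfrp5 (94.0 in mutants, 41.9 in controls) stood in the opposite order in the genotypes. Mutant replicate 4 had the order of the controls, with 65.0 for Dkk1 and 20.2 for Sfrp5. Sfrp4 was last at 6.39 in mutants and 6.70 in controls.

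Neighbours in the order of mutant levels overlapped between libraries for Dkk3 and Frzb, Frzb and Dkk2, Wif1 and Sfrp5, and Sfrp5 and Dkk1. In the order of control levels the overlapping neighbours were Dkk3 and Frzb, and Dkk1 and Sfrp5. Among 16641 tested genes with an exon length, Sfrp2 lay at percentile 99.74 of the level per kb, Sfrp1 at 97.55 and Sostdc1 at 95.8. The next genes were Dkk3 at 90.43, Frzb at 89.71, Dkk2 at 85.58 and Wif1 at 64.97. Sfrp5 at 35.69, Dkk1 at 35.33 and Sfrp4 at 6.322 lay below the middle of all genes.

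**Figure D3:**
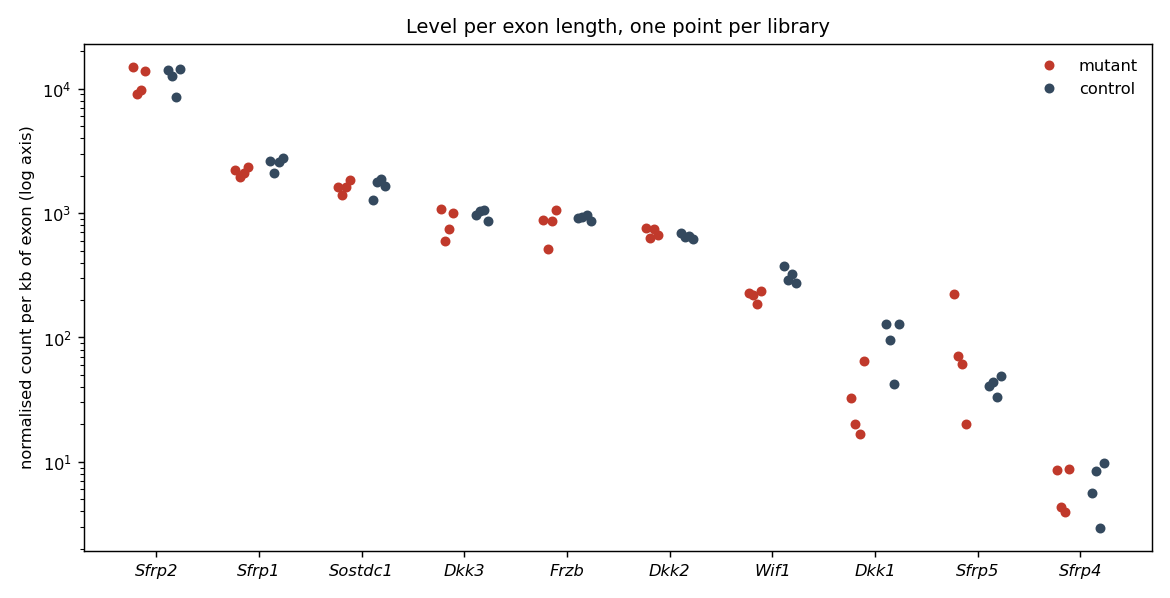
Normalised count per kb of exon (log axis) of each inhibitor gene, with a point for each mutant library on the left and each control library on the right of its column, ordered by control mean. Sfrp2 averages 11950 per kb in mutants and 12490 in controls, and Sfrp4 averages 6.39 in mutants and 6.70 in controls. The means of Dkk1 and Sfrp5 stand in the opposite order in mutants and controls.

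Library titles start with a number whose meaning the labels do not give. The number 2057 is shared by mutant replicate 4 and control replicates 2 and 4, and 3602 by mutant replicates 2 and 3 and control replicate 3. Sfrp2 was lower in all 3 libraries of number 3602 (18661.1 to 20966.5 normalised counts) than in the other 5 (27046.1 to 32213.4). Sfrp4 followed the same division, with 12.3 to 18.0 in the 3 libraries and 23.4 to 41.2 in the other 5. This lower position was seen for 2 of the 10 inhibitors and for 3.33% of all genes tested, and the opposite position for 0 of the 10 and for 4.25% of all genes. This division by number was not tested, and it crosses the genotypes.

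Within number 2057, with 1 mutant and 2 controls, the log2 difference was -0.78 for Dkk1 and -0.26 for Wif1. Within number 3602, with 2 mutants and 1 control, it was -1.17 for Dkk1 and -0.67 for Wif1. The direction within both numbers was thus the pooled one for these genes, at a smaller size than the pooled -1.62 for Dkk1. It was also the pooled one for Sfrp1 (-0.04 within 2057 and -0.34 within 3602) and for Dkk2 (0.07 and 0.05 in that order). However, the Sfrp1 mutant of 2057 lay between its 2 controls, and the Dkk2 mutants of 3602 lay on either side of their control. These libraries are part of the pooled comparison, so a shared direction is no separate check on it. For Sfrp5 the values were -1.18 within 2057 and 0.97 within 3602, in opposite directions. Dkk3 (0.08 within 2057 and -0.68 within 3602), Frzb (0.23 and -0.54 in that order), Sfrp4 (-0.06 and 0.45 in that order) and Sostdc1 (0.11 and -0.31 in that order) also had opposite signs within the 2 numbers, and Sfrp2 had 0.04 within 2057 and 0.12 within 3602. With the number as a block, 7 of the 10 genes were lower and 3 higher in mutants. Numbers 3606 and 3621 hold 1 library each, so that fit combines the differences within 2057 and 3602 and is no separate check on them.

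**Figure D4:**
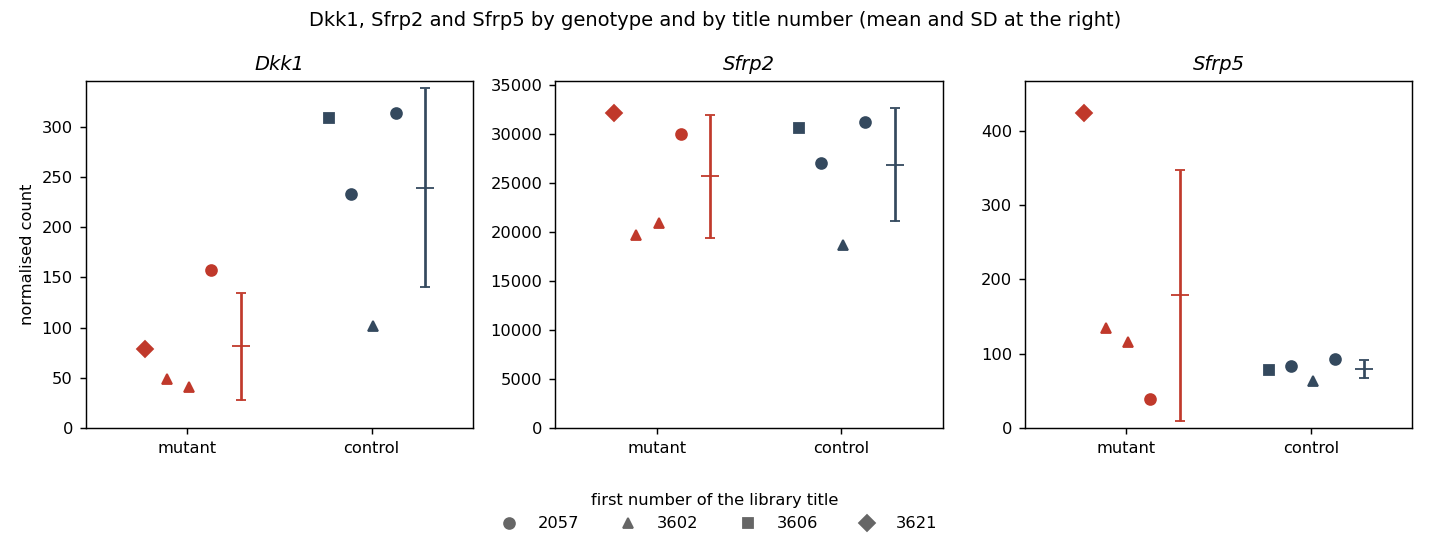
Normalised count (vertical axis, from 0) of Dkk1, Sfrp2 and Sfrp5 in mutants (left) and controls (right), with marker shapes for the first number of the library title and the mean and SD at the right of each group. The 3 libraries of number 3602 (triangles) hold the lowest Sfrp2 values of both genotypes, and the Dkk1 value of the control among them (101.6) lies below the other 3 controls.

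Related genes were compared by their ratio within a library, which asks whether paralogues differ in their response. The log2 ratio of Dkk1 to Dkk2 was -5.17 ± 0.891 in mutants and -3.46 ± 0.769 in controls (SD, n = 4 each), a difference of -1.71 (exact permutation p = 0.0571, 0.200 after adjustment over 7 pairs). The ratio of Dkk1 to Dkk3 differed by -1.38 (exact permutation p = 0.0571, adjusted 0.200), and that of Dkk2 to Dkk3 by 0.33 (exact permutation p = 0.171, adjusted 0.40). In the Frizzled-related genes the differences were -0.14 for Sfrp1 to Sfrp2, -0.89 for Sfrp1 to Sfrp5, -0.75 for Sfrp2 to Sfrp5 and -0.17 for Frzb to Sfrp4, with exact permutation p from 0.314 to 0.686. None of the 7 ratios passed after adjustment, and in none were mutants and controls free of overlap.

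Genes with the most similar pattern over the 8 libraries were found by the root mean square difference of centred log2 values among 12933 genes with a mean of at least 50. This was done for the 6 inhibitors with a mean of at least 50 and an SD of at least 0.3. The genes were picked for likeness over these same libraries, so shared high and low libraries, or a shared lack of overlap, largely follow from the choice. The nearest to Dkk1 were Ifitm5 (0.317), Sgms2 (0.318) and Smpd3 (0.329), where the median gene was at 1.09. Ifitm5 and Smpd3 belong to the osteogenic marker list. Ifitm5 had 135.2, 56.8, 56.9 and 179 normalised counts in the mutants, against 401.4, 352.4, 136.5 and 245.5 in the controls, with control replicate 3 again the lowest control and mutant replicate 4 the highest mutant.

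The nearest to Wif1 were Ipp (0.0964), Samd9l (0.144) and Inhba (0.145), against 0.341 for the median gene. Inhba, the activin A subunit gene, had 960.8, 817.7, 933 and 974 normalised counts in the mutants, against 1465.2, 1175.3, 1378.9 and 1371.9 in the controls, again with no overlap. Nearest to Dkk3 were Mmp23 (0.0673), Zfp521 (0.0684) and Prrx2 (0.0813), to Sfrp2 Stac2 (0.0857), Crip1 (0.103) and Zcchc10 (0.113), and to Frzb Sox18 (0.0905), Dennd4b (0.102) and Grrp1 (0.105), where median genes were at 0.318 to 0.345. The nearest to Sfrp5 were Kif19a (0.324), Plxnb3 (0.358) and Egr3 (0.410), against 0.950 for the median gene. In Kif19a, mutant replicate 1 was highest at 177 and mutant replicate 4 lowest of all libraries at 25.3, as for Sfrp5.

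The other genes of the pathway were read from the same fit, by role, and 0 of them passed across all genes by limma, by edgeR or by DESeq2. The shares called over all genes were 0.024%, 0.03% and 0.221% in that order. An unadjusted limma p under 0.05 was found for 3 of 17 ligand genes, 3 of 17 receptor genes, 1 of 12 further antagonists, 0 of 10 genes of secretion and agonists, 2 of 15 transducers and 1 of 10 beta-catenin targets. Over all genes tested the share was 6.57%. Of 17 tested WNT ligand genes (Wnt1 was at 0 in every library and Wnt8a was not tested), 13 had higher and 4 lower means in mutants (median log2 difference 0.26; with the title number as a block 10 were higher and the median was 0.09, and without mutant replicate 2 it was 0.16). Wnt6 had 903 ± 260 normalised counts in mutants and 552 ± 91.1 in controls (SD, n = 4 each), Wnt10a 353 ± 117 in mutants and 209 ± 44.2 in controls, and Wnt7b 1190 ± 319 in mutants and 863 ± 163 in controls (limma adjusted p of 0.751 for Wnt6 and 0.754 for the others). All 3 were highest in mutant replicate 2, the library with the highest epithelial sum, and for Wnt10a all mutants lay above all controls. In control replicate 4, with the highest epithelial sum of the controls (70056.9), Wnt6 (509.7) and Wnt7b (808.2) were below their control means. Wnt10a (247.5) was at its highest control value there. The part of the epithelial markers in these values was not tested.

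Among 17 receptor genes, 7 had lower and 10 higher means in mutants (median log2 difference 0.04). Lrp6, the co-receptor that DKK1 binds, had 6902.3, 6964, 7184 and 7218.8 normalised counts in the mutants, against 7565.5, 8006.6, 8928.9 and 7551.9 in the controls. All mutants lay below all controls for Lrp6, by a log2 difference of -0.18 (limma adjusted p = 0.754). The Frizzled gene Fzd10 had a log2 difference of 0.41 and Fzd5 one of -0.48, with overlap between the groups (limma adjusted p = 0.754 for both).

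Of 12 tested antagonists outside the 10 genes, 5 had lower and 7 higher means (median log2 difference 0.03). Kremen2, a co-receptor of DKK1, had 990.9, 1299.5, 1047.8 and 884 normalised counts in the mutants, against 619.7, 629.6, 853.6 and 830.8 in the controls, with all mutants above all controls (log2 difference 0.53, limma adjusted p = 0.751). The BMP, Nodal and WNT antagonist gene Cer1 had few counts, with 7.33 ± 4.58 in mutants and 15.0 ± 2.50 in controls. For Cer1 all mutants lay below all controls (1.9 to 12.6 against 12.8 to 18.5, log2 difference -1.14). Draxin had a log2 difference of 0.47, with overlap between the groups. Genes of WNT secretion and R-spondin-type agonists had 6 of 10 lower means and a median of -0.06, with Lgr6, an R-spondin receptor, at -0.15, Ndp, which encodes the Frizzled ligand norrin, at 0.56, and Wls, needed for WNT secretion, at 0.10.

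Intracellular transducers had 8 of 15 lower means and a median log2 difference of -0.01. Tcf7l1, a TCF factor that mostly represses, had 5590 ± 149 normalised counts in mutants and 6139 ± 243 in controls, with all mutants below all controls, while Dvl1 was at 0.18 and Pygo1 at -0.16 on the log2 scale. Of 10 beta-catenin targets, 3 had lower and 7 higher means, with a median of 0.06. The cyclin gene Ccnd1 had 8641 ± 799 in mutants and 9821 ± 702 in controls, and Lef1 and Rnf43 each had a log2 difference of 0.26. With the title number as a block the medians of the receptors (-0.05), the further antagonists (-0.06) and the targets (-0.0038) were below 0, and without mutant replicate 2 those of secretion genes (0.02) and transducers (0.03) were above it. Limma adjusted p for the genes named among antagonists, secretion genes, transducers and targets ran from 0.751 to 0.822.

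**Figure D5:**
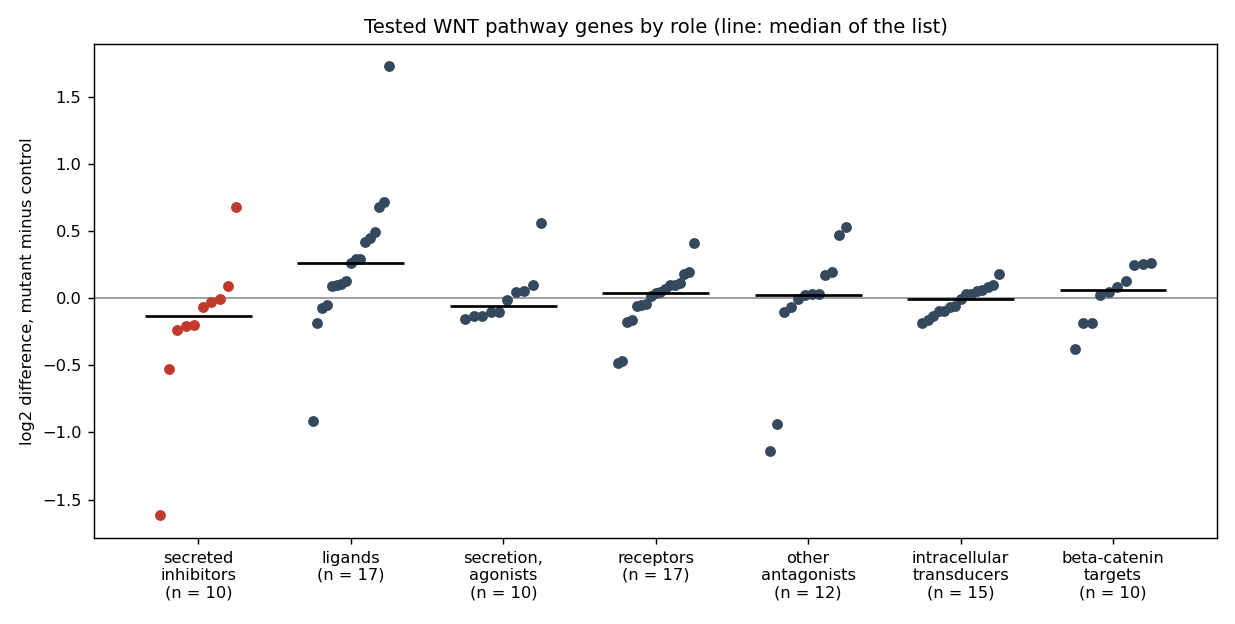
Log2 difference, mutant minus control (vertical axis), of every tested gene of the WNT pathway by role, with a point for each gene and a line at the median of each list. The 10 secreted inhibitors (left) have a median of -0.13 and the 17 ligands one of 0.26, and 0 of the genes plotted passed the limma test over all genes.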

How the data were processed

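RNA-seq libraries of posterior palatal shelves were grouped by the genotype in their labels, and replicates took their numbers from accession order. Per the submitters' processing notes, STAR 2.7.2 and DESeq2 were used. The sources used here name no counting tool, strand setting, annotation or build. Gene positions equalled those of GENCODE (GRCm38) for 49909 of 52403 IDs (95.24%), and for all 10 inhibitors. The deposited signal values are the authors' normalised counts, gene reads divided by 1 size factor per library (0.939 to 1.06). Multiples of 1 step were whole within 0.05 reads for 99.7% to 100% of values between 50 and 5000, where rounding alone gives 9.39% to 10.6%. The deposited log2 values are the authors' variance-stabilised values, used in 1 alternative.

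The 16647 genes with at least 10 normalised counts in at least 4 of 8 libraries were tested with limma 3.58.1 (R 4.3.3) on log2(normalised count + 1), two-sided, with an intensity trend, genotype as the only term and Benjamini-Hochberg adjustment at 0.05. Fold changes and intervals are on that scale and understate changes of low genes. Exact permutation used all 70 assignments of libraries. The code was tried on simulated data. Alternatives were a pseudocount of 0.5 or 8, filters set to none or to a mean of at least 50, scaling by upper quartile, by quantiles or by trimmed mean of M-values, a robust variance prior, library weights, the title number as a block, the stabilised values, edgeR 4.0.16 and DESeq2 1.42.0 on recovered reads, and leaving out each library. The counts of lower inhibitors and higher ligands without mutant replicate 2, with the block and by edgeR and DESeq2 were added after seeing the data. The genes named were the 10 inhibitors, Yap1 and Wwtr1, up to 3 genes with the smallest p in each role list, and the 3 genes nearest in pattern to each inhibitor with a mean of at least 50 and an SD of at least 0.3. The members and gene lists were chosen with earlier results of these data known. Promoters came from RefSeq (GRCm38.p6). Python 3.11.15 with numpy 2.4.6, pandas 2.3.3 and matplotlib 3.10.9 was used.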

Additional observations from a re-analysis of the deposited data

How the results depend on the processing

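Over all genes, 4 were called by limma, 0 with a robust variance prior, 31 by DESeq2 and from 0 to 11 when 1 library was left out. The count was 0 without mutant replicate 3, control replicate 2 or control replicate 4, it was 8 without mutant replicate 4, and it was 11 without control replicate 3. Of the 10 inhibitors 0 were called in 20 of 21 alternatives and 1 (Wif1) by DESeq2, where Sfrp4 had no adjusted p. Wif1 kept its sign in all 21 (-0.59 to -0.23), and so did Dkk1 (-2.0 to -0.34), both nearest to 0 on the stabilised values, whose scale is narrower. Dkk2, Dkk3 and Sfrp1 kept their signs as well. Sfrp5 was at 1.17 by edgeR and by DESeq2, against 0.68 by limma. With the title number as a block the signs of Sfrp2 (0.084), Sfrp4 (0.19) and Sfrp5 (-0.11) turned. Sostdc1 turned under quantile normalisation (0.0037) and library weights (0.023). Leaving out 1 library in turn gave log2 differences from -0.235 to 0.048 for Sfrp2, from -0.36 to 0.20 for Sfrp4, from -0.33 to 0.016 for Frzb and from -0.13 to 0.059 for Sostdc1. The cause of these turns was not tested. The count of inhibitors with a lower mean was 8, and 4 without mutant replicate 2. A mean of at least 50 gave no value for Sfrp4. The labels give no replicate numbers that pair mutants with controls, so the title number was the block that could be fitted. The fits with and without the block both called 0 of the 10 inhibitors. The differences in the block fit come from numbers 2057 and 3602 only, since 3606 and 3621 hold 1 library each. With fewer libraries behind it, its count of 0 cannot show that the block has no effect, and the signs of Sfrp2, Sfrp4 and Sfrp5 turned in it. Depth limits Sfrp4, at 12 to 42 reads in a library.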
